A study of Mus musculus with 21 samples.

Results

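The 53 genes described here are broadly expressed genes of mouse chromosome 13, from Cdkal1 to Paip1 in chromosome order, selected on their RNA levels, lower as a set in breast cancer cells after the fourth passage on brain tissue (brain P4) than in the parental cells (P0). A probe set was found for 52 of the 53 genes among the 19937 genes of the array (Gtf2h2 had none with its name). Of the 52 genes, 39 passed the filter on dim probe sets and 13 did not. The table named 732 genes of chromosome 13 in all. The choice used RNA of brain P4 against parental P0, so every value of that comparison is given below as a description, without a test.

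The cells were N202, a mouse mammary tumor cell line that carries the Her-2/neu transgene and, in all groups, an H2B-GFP cassette selected with G418. The 21 Affymetrix arrays fell into 16 groups. Cells adapted on minced, revascularized tissue in a dorsal skinfold chamber, 21 days a passage, gave brain P1 to P4 (2 arrays each), bone marrow P1 to P4, lung P1 to P4, breast P1, and P1 and P2 of a second brain experiment (1 array each); parental P0 cells, never placed on tissue, gave 2 arrays. All adapted cells had been sorted by GFP and expanded in culture before RNA was purified. The 2 arrays of a brain passage came from cultures of 1 adapted line, so the spread between them is not a spread between animals. The passages of a tissue are successive states of 1 line and share its history.

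RNA level follows the number of copies of a gene when other control is constant, and genes that most cells express at a steady level are therefore used to look for gains or losses of a chromosome. Such loss tends to move neighbouring genes of unlike function together, while regulation through a pathway moves genes of like function wherever they lie. Mouse chromosome 13 carries genes of splicing and translation (Ppwd1, Cwc27, Paip1), nuclear transport (Nup153, Ipo11) and the mitochondrion (Ndufs4, Nnt, Mrps30). It also carries genes of DNA repair (Polk, Rad17, Fancc) and transcription (Taf9, Cdk7, Btf3). DNA was not measured on these arrays, and a change in copy number and a change in transcription cannot be told apart in them.

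Promoter windows of 250 bases before to 50 bases after the transcript start were at hand in RefSeq (GRCm38.p6) for 49 of the members, in 58 windows. They are shown for Ppwd1 and Mier3, which were among the lowest members at brain P4, and for Mylip, which had the lowest p between the earlier brain passages. Capitals mark matches, on either strand, to GGGGCGGG (Sp1), CCGGAAG (ETS), CCAAT or TATAAA. The windows are chr13:104228795-104229094 on the minus strand for Ppwd1, chr13:111685928-111686227 on the plus strand for Mier3 and chr13:45389492-45389791 on the plus strand for Mylip.
Ppwd1: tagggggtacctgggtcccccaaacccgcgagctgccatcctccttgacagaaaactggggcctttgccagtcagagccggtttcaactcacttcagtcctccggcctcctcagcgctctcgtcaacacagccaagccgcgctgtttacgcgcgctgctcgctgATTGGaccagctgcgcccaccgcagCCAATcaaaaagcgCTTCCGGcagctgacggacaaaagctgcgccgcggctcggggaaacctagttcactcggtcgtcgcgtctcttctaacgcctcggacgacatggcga
Mier3: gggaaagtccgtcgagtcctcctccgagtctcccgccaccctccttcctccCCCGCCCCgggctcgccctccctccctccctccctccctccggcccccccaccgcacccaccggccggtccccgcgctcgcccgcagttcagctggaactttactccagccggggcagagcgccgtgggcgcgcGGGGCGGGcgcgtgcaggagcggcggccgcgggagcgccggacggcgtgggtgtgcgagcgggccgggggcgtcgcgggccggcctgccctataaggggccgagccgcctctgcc
Mylip: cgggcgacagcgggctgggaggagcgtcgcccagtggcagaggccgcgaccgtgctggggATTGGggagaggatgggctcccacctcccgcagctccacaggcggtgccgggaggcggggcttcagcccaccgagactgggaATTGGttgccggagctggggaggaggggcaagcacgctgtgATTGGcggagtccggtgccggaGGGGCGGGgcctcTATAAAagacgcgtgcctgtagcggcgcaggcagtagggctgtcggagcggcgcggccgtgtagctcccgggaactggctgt
The Ppwd1 window held 2 CCAAT and 1 ETS match, the Mier3 window 2 Sp1 matches, and the Mylip window 3 CCAAT, 1 Sp1 and 1 TATA match. The median G+C content was 67.7% in the members' windows, against 62.0% for genes past the filter and 52.7% for all promoters of the table. A GGGGCGGG match lay in 46.6% of the members' windows, against 33.1% for genes past the filter and 16.5% for all. TATAAA was in 12.1% of them, against 6.59% and 13.6%. CCGGAAG was in 22.4% of them, against 19.3% and 8.86%, and CCAAT was in 36.2%, against 37.0% and 37.4%. AAGATGGC (YY1) was in 12.1%, against 5.0% and 2.75%, and GCGCATGC (NRF1) was in 5.17%, against 5.71% and 2.71%. These shares rest on few windows, some of which overlap or belong to 1 gene, and their differences were not tested. None of the 3 printed windows held YY1 or NRF1 matches.

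The name housekeeping was checked on the members' levels. Their median level was 8.21 on the log2 scale for the 39 past the filter, against 8.24 for all genes past it, so they were neither bright nor dim among expressed genes. On the 17 arrays other than brain P4 and P0, which had no part in the choice, 69.2% of the 39 were above the filter's limit of 7.33 on every array, against 60% of all genes past the filter. Their median SD over those 17 arrays was 0.30, against 0.29 for all genes past the filter, so they were no steadier than other expressed genes. The other 13 of the 52 measured members did not pass the filter, so housekeeping is only the name of the list. The member just inside the limit was Jarid2, a component of a Polycomb complex, with a highest group mean of 7.36, and just outside it was Map3k1, a kinase of stress signaling, with 7.30.

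The identity of the cells was checked first. All 5 markers of mammary tumor cells (Erbb2, Krt8, Krt18, Epcam and Cdh1) were above 7.33 on all 21 arrays, with a mean level of 11.07 and 11.28 at brain P4 and of 11.51 and 11.53 at P0. No marker of neurons, endothelial cells, fibroblasts or lung epithelium (0 of 14 measured) passed 7.33 on any array, Aldoc of the astrocyte list did on 19 arrays, Mbp of 2 measured oligodendrocyte markers on 4, and Cd68 of 4 measured leukocyte markers on 6. The mean level of the leukocyte list was 4.81 and 5.34 at brain P4 and 4.67 and 4.69 at P0. Within it Cd68 averaged 7.66 at brain P4 and 5.97 at P0, with its highest level, 8.46, on the second brain P2 array, while Ptprc, Lyz2 and Cd3e passed 7.33 on no array; their part in the results was not tested. The second arrays of the brain passages and lung P1 had a higher floor (5th percentile of 2.89 to 3.45) than the other arrays (2.43 to 2.76).

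At brain P4, 47 of the 52 measured members (90.4%) were below their parental level, as were 74.5% of all other genes past the filter. The median log2 change of the members was -0.50, a decrease of 29.3%, with -0.55 on the first array and -0.47 on the second. Single members ran from -1.79 to 0.40. For the 39 members past the filter the median was -0.67, against -0.34 for the other 226 genes of chromosome 13 past it and -0.19 for 7035 genes of other chromosomes. Genes past the filter were thus below P0 on the common scale at brain P4 on other chromosomes too, and the members are to be read relative to that value. Both brain P4 arrays lay below both parental arrays for 31 of the 39 members, against 40.9% of all genes past the filter. The members were chosen on these arrays, so nothing is read from this count.

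**Figure D1:**
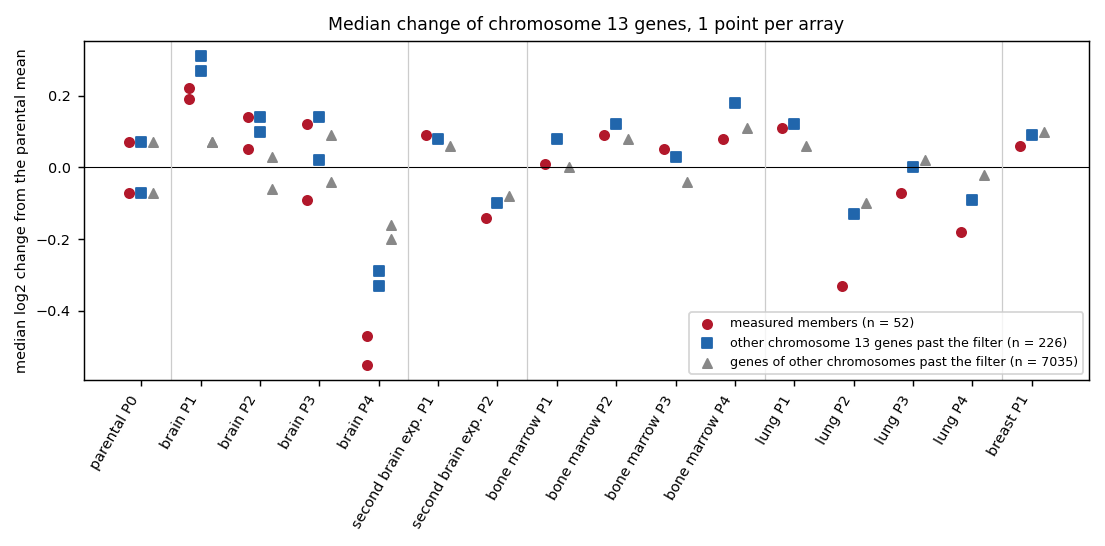
Median log2 change from the mean of the parental arrays (vertical axis) on each of the 21 arrays, by group (horizontal axis), for the 52 measured members, the 226 other chromosome 13 genes past the filter and the 7035 genes of other chromosomes. The brain P4 arrays were lowest for the members, at -0.55 and -0.47, and lung P2 followed at -0.33.

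The members were listed by chromosome and not by function, so nothing is read from the unlike functions of the lowest at brain P4. Paip1, a partner of the poly(A)-binding protein in translation, had levels of 6.56 and 6.79 in brain P4, against 7.79 and 8.44 in P0, a change of -1.44 ± 0.23 (SE of the fit). Ppwd1, a spliceosomal prolyl isomerase, had 6.93 and 7.0 in brain P4, against 8.28 and 8.37 in P0 (-1.36 ± 0.21). In both genes the groups did not overlap, and the parental arrays of Paip1 lay further apart than those of Ppwd1.

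Ipo11, an importin that carries proteins into the nucleus, had 7.39 and 7.51 in brain P4, against 8.74 and 8.83 in P0 (-1.34 ± 0.18). Dimt1, a methyltransferase of ribosomal RNA, had 6.57 and 6.70 in brain P4, against 8.23 and 7.70 in P0 (-1.33 ± 0.24). Mier3, a chromatin protein of the MIER family, had 6.82 and 6.85 in brain P4, against 7.98 and 8.29 in P0 (-1.30 ± 0.17). Each of these had its lowest brain level at P4. Nnt, the transhydrogenase of the inner mitochondrial membrane, had 7.61 and 7.29 in brain P4, against 8.47 and 8.99 in P0 (-1.28 ± 0.22). Some were below their parental level before P4: Nnt by -0.50 at P3, Ppwd1 by -0.63 at P2 and -0.37 at P3, and Ipo11 by -0.22 at P2 and -0.09 at P3, none of which passed the threshold.

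A few members did not share this. Map1b, a microtubule-associated protein, had 9.54 and 8.72 in brain P4, against 8.75 and 8.70 in P0, a change of 0.40 that came from the first array alone. Atxn1, a transcriptional repressor, changed by 0.20 and Enc1, an actin-binding kelch protein, by 0.15, both with overlapping groups. Polk changed by 0.03 and Taf9, a subunit of the general transcription machinery, by -0.03. The only probe set of Taf9 had a number outside the run of the other members, so its identity is less sure. Of the members not past the filter, Mrps30, a protein of the mitochondrial ribosome singled out after its values were seen, had 5.09 and 3.95 in brain P4, against 6.37 and 6.25 in P0 (-1.79). Its P4 arrays were far apart, and only the second value came near the floor of its array (5th percentile of 3.18).

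By function, the medians of 5 of the 6 groups lay below that of other genes at brain P4, and nuclear transport matched it. The 8 members of mitochondria and metabolism past the filter had the lowest median, -0.84, with all 8 below 0 (from Nnt at -1.28 to the ceramide transporter Col4a3bp at -0.26). RNA processing and translation followed with -0.70 and 7 of 7 below 0, from Paip1 at -1.44 to Smn1, of the splicing machinery, at -0.20. DNA repair, cell cycle and division had -0.55 and 4 of 5 below 0, led by Kif2a, a microtubule-depolymerizing kinesin, at -1.18. Transcription and chromatin had -0.47 and 7 of 8 below 0, and signaling, trafficking and cytoskeleton -0.47 and 6 of 8, led by Pik3r1, the regulatory subunit of PI3-kinase, at -0.96. Nuclear transport had -0.20, with 3 of 3 below 0, of which Ipo11 was low and Nup153 and Ranbp9 close to parental cells. Ranbp9 was counted in this group, though its part in nuclear transport is unsure. Over all 7261 other genes past the filter the median was -0.20 and 74.5% were below 0.

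**Figure D2:**
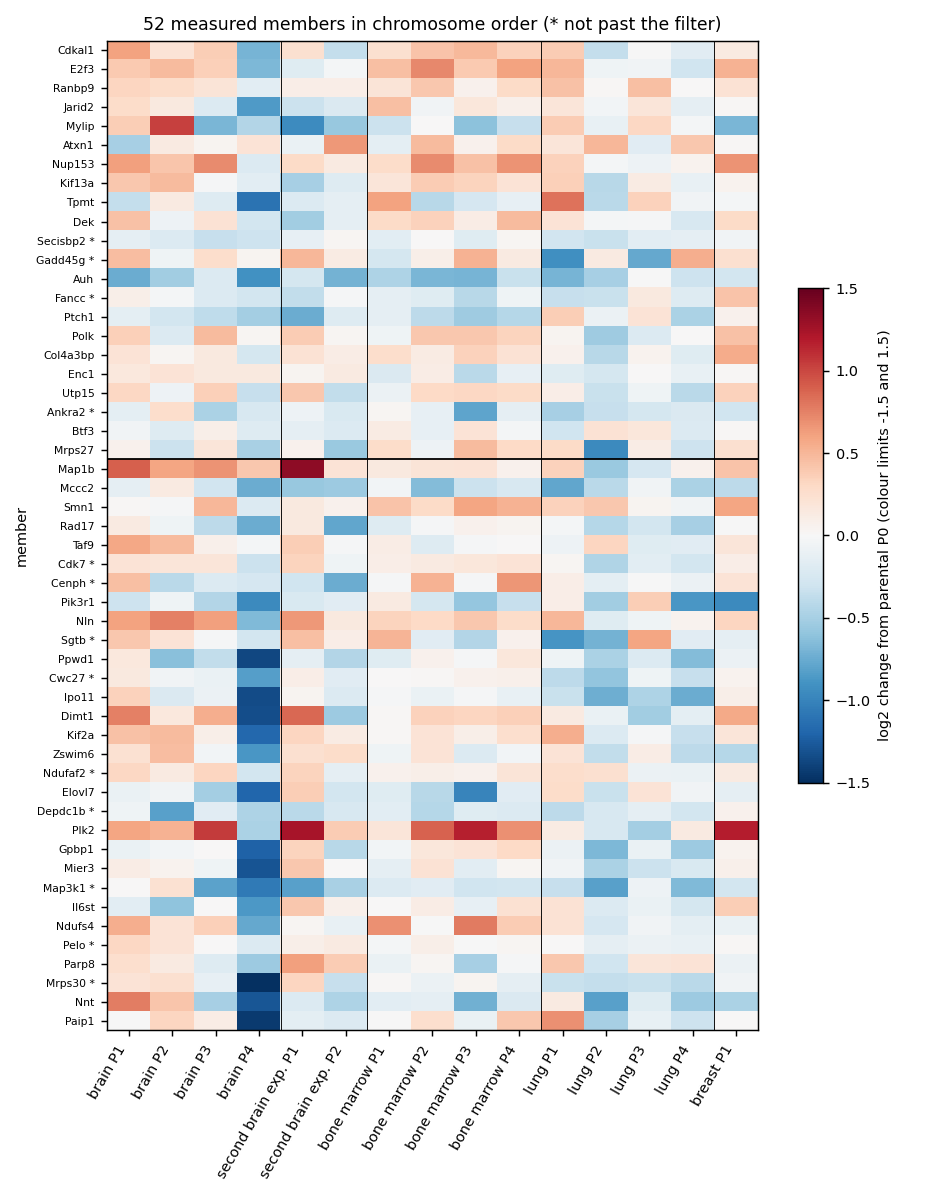
Log2 change from parental P0 (color) of the 52 measured members, in chromosome order from top to bottom, in each adapted group (columns). The dark blue cells of brain P4 lie mostly in the rows under the line, which separates the 30 members from Map1b to Paip1 from the 22 before it; Paip1 in the bottom row was at -1.44.

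Order along the chromosome was examined next. The 265 chromosome 13 genes past the filter were put in order and cut into 14 blocks of 20 (5 in the last). At brain P4 the medians of the first 11 blocks lay between -0.13 and -0.50, and those of the last 3, from Map1b to the chromosome end, were -0.73, -0.82 and -1.05. The 21 members in the last 3 blocks had a median of -0.87 (-0.94 and -1.04 on the single arrays), against -0.30 for the 18 members elsewhere (-0.33 and -0.26). The border was set after the values were seen, and no test was made of it. Of the 12 measured members at or below -1 at brain P4, 11 lay in this end part. It held 30 of the 52 measured members, and its border was set with these values seen, so nothing is read from the count. Beside the 6 lowest and Mrps30, the 11 were Gpbp1, a transcription factor (-1.21), Elovl7, a fatty acid elongase (-1.19), Kif2a (-1.18) and Map3k1 (-1.06). The other was Tpmt, a thiopurine methyltransferase near the start of the list (-1.11). Among all genes past the filter 2.15% were at or below -1, and among the members past it 25.6%. The members were chosen on this comparison, so nothing is read from the difference between these shares.

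Other genes of the end part were low as well. The 24 other genes in the last 3 blocks had a median of -0.73 at brain P4 (-0.72 and -0.74 on the arrays) and 24 of 24 were below 0. The other genes elsewhere on the chromosome had -0.29, with 80.2% below 0. The border of the end part was set with the values of these 24 genes seen, so nothing is read from the difference. The lowest of the 24 was Srek1ip1, an interactor of a splicing regulator, with 6.15 and 6.35 in brain P4, against 7.60 and 8.07 in P0 (-1.58). The other extreme non-members lay outside the end part, with Gli3, a transcription factor of Hedgehog signaling, at -2.27, Arrdc3, an arrestin-like adaptor, at -1.62, the noncoding Lncenc1 at 3.81, Edn1 (endothelin) at 1.41 and F2r (the thrombin receptor) at 1.29. Single genes thus moved up or down by more than the end part did. Chromosome 13 as a whole, members included, had the lowest median of 20 chromosomes at brain P4, -0.35, followed by -0.29 for chromosomes 1 and 19. The members of this chromosome were chosen on that comparison, so nothing is read from its rank there. At brain P1 and P2 chromosome 13 had the highest median, 0.28 and 0.13.

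**Figure D3:**
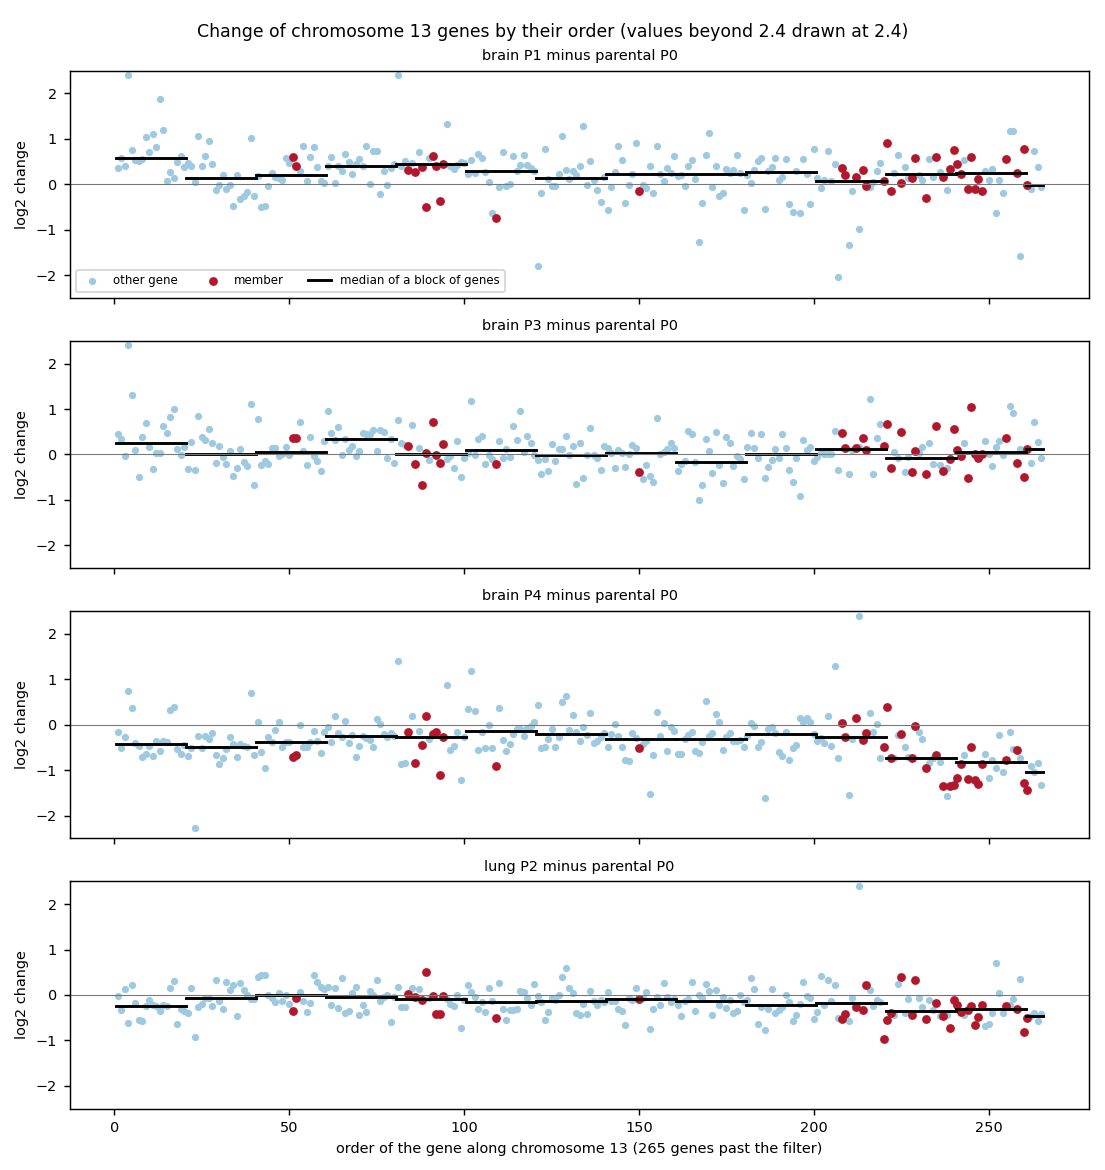
Log2 change from parental P0 (vertical axis) of the 265 chromosome 13 genes past the filter, in their order along the chromosome (horizontal axis), for brain P1, P3 and P4 and lung P2; red points are members, blue points other genes, and black lines the medians of blocks of 20 genes. The last 3 lines are the lowest at brain P4, at -0.73, -0.82 and -1.05, and at lung P2, at -0.36, -0.31 and -0.46; at brain P1 only the last of them, of 5 genes, is the lowest (-0.01), and at brain P3 none is.

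At the earlier brain passages the members had medians near or above those of other genes. Against P0 the median of the 52 members was 0.22 at P1, 0.14 at P2 and 0.01 at P3, beside 0.08, -0.02 and 0.02 for all 7261 other genes; the pooled SD of this median between the arrays of a pair was 0.092. Leaving out 1 array at a time moved these medians between 0.13 and 0.27 at P1, -0.03 and 0.18 at P2 (the lowest without the first parental array) and -0.09 and 0.12 at P3 (without the first and the second P3 array). For the 39 members past the filter the medians were 0.25, 0.14 and 0.08 at P1, P2 and P3. In the end part the 30 measured members had medians of 0.22, 0.15 and -0.03 at P1, P2 and P3. Of these 30, 7, 11 and 16 were below 0, beside 42.2%, 51.7% and 47.0% of all other genes. At P4 the 30 had -0.80, with 29 below 0, beside 74.5% of all other genes. From P3 to P4 the median of the 52 members changed by -0.56, with 47 below 0. That of all other genes changed by -0.21, with 5289 of 7261 below 0.

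Tests were made for P1, P2 and P3, arrays that had no part in choosing the members; the comparisons with P0 share the parental arrays with the choice. Against P0, limma called 0 members lower and 0 higher at P1 (2.85% and 2.66% of all genes were called), while 10 of 39 had an unadjusted p under 0.05, 2 of them lower, against 22.7% of all genes. At P2 it called 0 lower (7.84% of all genes) and 2 higher (5.30%), and at P3 0 lower (0.425%) and 0 higher (0.301%), with 7 and 5 members at an unadjusted p under 0.05, against 29.2% and 12.6% of all genes. The 2 called at P2 were Mylip, a ubiquitin ligase that targets lipoprotein receptors, and Nln, the peptidase neurolysin.

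Mylip had 9.32 and 9.16 in brain P2, against 7.98 and 8.46 in P0 (1.02 ± 0.21, limma adjusted p = 0.017). The groups did not overlap, but the call was lost without the first parental array (adjusted p = 0.0978) or without the first or the second P2 array (0.0934 and 0.0629). Nln had 8.19 and 8.13 in brain P2, against 7.12 and 7.70 in P0 (0.75 ± 0.21, limma adjusted p = 0.0496). It too was lost without the first parental array (adjusted p = 0.23) or either P2 array (0.18 and 0.146).

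Between brain P2 and P1, limma called 0 members lower (1.67% of all genes) and 0 higher (0.932%), with 7 at an unadjusted p under 0.05, against 21.3% of all genes. The lowest p belonged to Ppwd1, with 7.60 and 7.80 in P2, against 8.35 and 8.63 in P1 (-0.79 ± 0.21, limma adjusted p = 0.094). Next were Atxn1 (0.63, adjusted p = 0.131), the translesion DNA polymerase Polk (-0.57, adjusted p = 0.135) and Mylip (0.65, adjusted p = 0.143). None of these passed the threshold.

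Between brain P3 and P1, 2 members were called lower (4.58% of all genes) and 0 higher (5.22%). Nnt had 8.07 and 8.40 in P3, against 9.51 and 9.49 in P1 (-1.27 ± 0.22, limma adjusted p = 0.0111). Mylip had 7.50 and 7.59 in P3, against 8.73 and 8.46 in P1 (-1.05 ± 0.21, limma adjusted p = 0.0179). Neither gene overlapped between the passages. When single arrays were left out, Nnt kept its call only without the second P3 array (adjusted p = 0.0334, and 0.0509 to 0.0753 without the others), and Mylip lost it in all 4 cases (0.0639 to 0.124).

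Between brain P3 and P2, 2 members were called lower (10.8% of all genes) and 1 higher (14.0%). Mylip fell to 7.50 and 7.59 in P3, against 9.32 and 9.16 in P2 (-1.70 ± 0.21, limma adjusted p = 0.00135), and this was the only call of a member that held without each of the arrays compared (adjusted p from 0.0088 to 0.0105). Nnt fell to 8.07 and 8.40 in P3, against 9.10 and 9.21 in P2 (-0.92 ± 0.22, limma adjusted p = 0.0196), and kept its call without the second P3 array alone. Polk rose to 8.44 and 8.21 in P3, against 7.53 and 7.73 in P2 (0.69 ± 0.18, limma adjusted p = 0.0256), a call lost without any 1 of the 4 arrays (0.0521 to 0.125). The shares of members called, 5.13% and 2.56%, were below the shares of all genes, so members were not called more often than other genes.

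**Figure D4:**
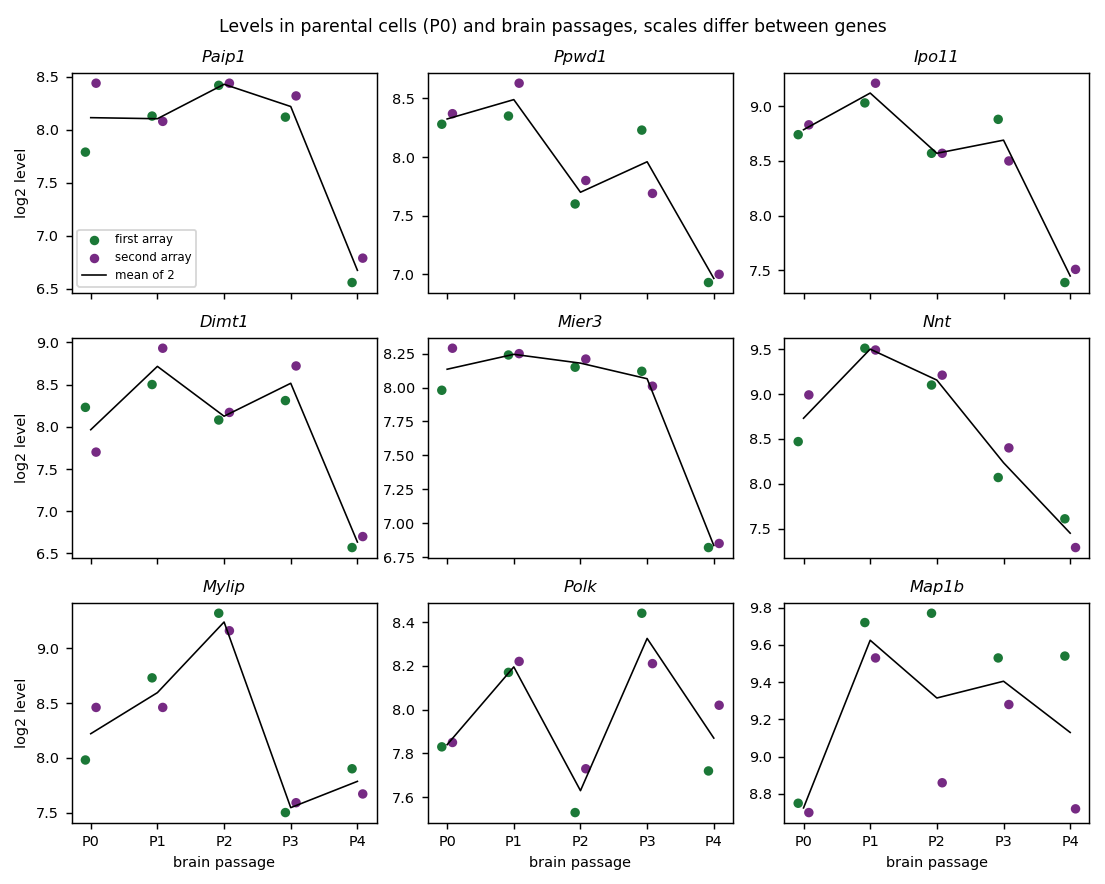
Log2 level (vertical axis, with its own scale in each panel) of 9 members in parental cells (P0) and at brain passages P1 to P4 (horizontal axis); points are the 2 arrays and the line joins their means. Paip1, Ppwd1, Ipo11, Dimt1, Mier3 and Nnt had their lowest level at P4, Nnt had its highest level at P1, and Mylip fell to 7.50 and 7.59 at P3, against 9.32 and 9.16 at P2.

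On the other tissues the median of the 52 members was near that of other genes, except at lung P2 and P4. Each of these groups was 1 array, so the values have no replicate check. All of them share the parental arrays with the choice of the members. The median of the 52 members was 0.01, 0.09, 0.05 and 0.08 at bone marrow P1 to P4, beside 0.01, 0.08, -0.03 and 0.12 for all other genes. It was 0.11, -0.33, -0.07 and -0.18 at lung P1 to P4, beside 0.06, -0.10, 0.02 and -0.02. The value of lung P2 was -0.45 without the first and -0.24 without the second parental array, that of lung P4 was -0.28 and -0.15, and that of lung P3 was 0.05 without the second. It was 0.06 for breast P1, beside 0.10, and 0.09 and -0.14 at P1 and P2 of the second brain experiment, beside 0.06 and -0.08. The other genes had all passed the filter. For the 39 members past it the medians were 0.02, 0.12, 0.07 and 0.20 at bone marrow P1 to P4. They were 0.20, -0.33, -0.05 and -0.18 at lung P1 to P4, so those of lung P1 and bone marrow P4 were above other genes. The 13 members not past it had -0.34 at lung P1. The second brain experiment had arrays of P1 and P2 only, so the low level of brain P4 rests on 1 adapted line. In the paper's modeling, P2 of the second experiment lay closest to a point between P3 and P4 of the first.

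At lung P2, 26 of the 39 members lay below both parental arrays, against 45.7% of all genes past the filter, and at lung P4, 23 did, against 34.6%. The counts were 7 at lung P1 (27.4%) and 12 at lung P3 (30.2%). They were 10, 10, 13 and 7 at bone marrow P1 to P4 (29.3%, 22.7%, 38.6% and 18.4%), 8 for breast P1 (22.4%) and 13 and 18 for P1 and P2 of the second brain experiment (31.2% and 44.4%). At lung P2 and P4 the shares of members that were low, 66.7% and 59.0%, were above those of all genes. The members were chosen as low against the same parental arrays, which can raise these counts, and the excess was not tested. On the other lone arrays the members' shares were within a few points of all genes or below them, as with 46.2% at P2 of the second brain experiment and 17.9% at lung P1.

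On the lung arrays the members of the end part had lower medians than those elsewhere, and so did the other genes there except at P3. At lung P2 the 21 members of the last 3 blocks had a median of -0.37, against -0.19 for the 18 elsewhere, and the 24 other genes there had -0.39, against -0.12 for the other genes elsewhere. At lung P4 the values were -0.26 against -0.15 and -0.19 against -0.07. At lung P1 they were 0.14 against 0.25 and 0.00 against 0.13, and at lung P3 -0.10 against 0.03 and 0.02 against 0.00. Among the members lowest at brain P4, Ipo11 changed by -0.73 and -0.75 at lung P2 and P4, Nnt by -0.81 and -0.54, Ppwd1 by -0.47 and -0.65, and Dimt1 by -0.10 and -0.15. Mrps27, a mitochondrial ribosomal protein, was the lowest member at lung P2, -0.96. At bone marrow P1 to P4 the members of the last 3 blocks had -0.01, 0.11, -0.02 and 0.07. Members elsewhere had 0.19, 0.21, 0.18 and 0.25, so a lower median of the end part's members was not particular to lung. The 24 neighbors had 0.07, 0.10, -0.04 and 0.19, against 0.08, 0.12, 0.04 and 0.18 for other genes elsewhere. In the second brain experiment the members of the last 3 blocks were higher at P1, with 0.32 against -0.12. At P2 the medians were close, -0.11 against -0.17. Over all measured members they were -0.15 from Map1b on and -0.14 before it at P2.

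The members lie in 3 stretches of the chromosome, which had unlike medians on several arrays; the differences between them were not tested. The 10 members from Cdkal1 to Dek, Ranbp9 and Mylip among them, had medians of 0.26, 0.39, 0.14 and 0.29 at bone marrow P1 to P4. The 5 of the middle stretch, Secisbp2, Gadd45g, Auh, Fancc and Ptch1, had -0.16, -0.18, -0.42 and -0.07, and the 37 from Polk to Paip1 had 0.01, 0.09, -0.01 and 0.07. Of the middle stretch, Secisbp2, Gadd45g and Fancc did not pass the filter, and each of its medians here is the value of Secisbp2 or Fancc. Auh and Ptch1, which passed it, were below P0 on the bone marrow arrays as well. The first stretch was thus the highest on these arrays and the middle one, of which Auh, an enzyme of leucine breakdown, was below its parental level in every group, the lowest. At brain P4 the medians were -0.35, -0.31 and -0.66. At P1 of the second brain experiment the first stretch had -0.19 and the last 0.22, the opposite order to that of bone marrow. Cdkal1, a tRNA-modifying enzyme and the first member in order, had 7.23 and 7.73 in brain P4, against 8.07 and 8.30 in P0 (-0.70 ± 0.28), while it was 0.24 to 0.49 above P0 at bone marrow P1 to P4 and -0.36 at lung P2.

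Bone marrow and lung were compared over their 4 passages each, which are 1 line a tissue. The spread in this fit came from the paired brain and parental cultures, so its p-values set 2 lines against the noise between cultures and do not speak for the tissues. The median difference of the 52 members was 0.25 in favor of bone marrow, with 10 below 0. It was 0.05 for all other genes, with 2969 of 7261 below 0, and 0.14 for the other genes of chromosome 13. In limma 0 members were called lower (0.0822% of all genes) and 0 higher (0.0548%), while 14 of 39 had an unadjusted p under 0.05, 2 of them lower in bone marrow, against 14.9% of all genes. The lowest p belonged to Plk2, a polo-like kinase, with 0.85 ± 0.16 (limma adjusted p = 0.0954), followed by Ipo11 with 0.51 (adjusted p = 0.155). Plk2 was among the most variable members, with changes from P0 of 1.17 at bone marrow P3, 1.18 for breast P1, 1.24 at P1 of the second brain experiment and 1.05 at brain P3, against -0.51 at lung P3.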

How the data were processed

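The RNA of each culture was hybridized to 1 Affymetrix Mouse Gene 1.0 ST array, 21 in all, and arrays were grouped by their labels. The deposited log2 values were made by the authors with RMA in the Affymetrix Expression Console (background correction, quantile normalization, median polish). Of 34760 probe sets, 21640 carried 1 symbol, 1321 several and 11799 none. The gene identifiers of 21553 probe sets with 1 symbol matched RefSeq (GRCm38.p6), which gave chromosome and order. One probe set per gene was used, that of the highest mean (954 of 19937 genes had several), and the median of all genes on each array was subtracted and a common constant added back. Probe sets were ranked by their largest group mean and 10522 were kept (limit 7.33), as many as in the methods; 7300 genes remained.

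One limma 3.58.1 model (R 4.3.3) with a mean per group was fitted to all arrays, with empirical Bayes variances (residual df 5, prior df 4) and Benjamini-Hochberg adjustment over all kept probe sets, called under 0.05. The fit was tested on simulated data. A lone array is assumed to vary like the pairs. The number of arrays and of adapted lines limits the precision. Motifs were searched on both strands in Python 3.11.15 (numpy 2.4.6; figures by matplotlib 3.10.9).

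The members, gene lists and tests were chosen with earlier results of these data known. Genes named were the 6 lowest and 3 highest members at brain P4, called members and those of lowest p between earlier passages, those at the filter's limit, the first and last in order, and the 3 lowest and 3 highest other genes of the chromosome; all others were named after their values were seen.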

Additional observations from a re-analysis of the deposited data

Results flagged for a closer look

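The members' median change from parental P0 had opposite signs on all arrays of some pairs of tissues at the same passage. The difference was not tested in any of these cases. At P4 it was -0.59 between brain (-0.55 and -0.47) and bone marrow (0.08), and 0.26 between bone marrow (0.08) and lung (-0.18). At P2 it was 0.42 between brain (0.05 and 0.14) and lung (-0.33), 0.23 between brain and the second brain experiment (-0.14), 0.41 between bone marrow (0.09) and lung, and 0.23 between bone marrow and the second brain experiment. At P3 it was 0.12 between bone marrow (0.05) and lung (-0.07, or 0.05 without the second parental array). Over all other genes the medians at P4 were -0.20 for brain, 0.12 for bone marrow and -0.02 for lung. At P2 they were -0.02 for brain, 0.08 for bone marrow, -0.10 for lung and -0.08 for the second brain experiment. At P3 they were -0.03 for bone marrow and 0.02 for lung. Part of the members' differences at P2 and P4 was thus common to other genes. Several of the members' medians lie within about the pooled SD of 0.092 between the arrays of a pair. No group held 4 arrays, so no array was compared with its own group for outliers.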

How the results depend on the processing

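The members' medians, counts of calls and single tested members were recomputed under other settings; medians by block, function, stretch and chromosome were not. No change of a called member turned its sign. Of the medians, 176 of 208 moved by less than the SD of 0.092 between paired arrays, and small ones changed sign, as given below; 139 of 160 counts stayed within 1.5 times and 1064 of 1092 single values on their side of the threshold. Some settings were added after seeing the data (members past the filter only, without Taf9, first brain arrays only). Without 1 array in turn, the members' median at brain P4 ran from -0.72 (without the first parental array) to -0.39 (without the second), at P1 from 0.13 to 0.27, at P2 from -0.03 to 0.18, at P3 from -0.09 to 0.12, between P3 and P1 from -0.28 to -0.04 and between P3 and P2 from -0.11 to 0.10. Over the same omissions 0 to 2 members were called higher at P2, 0 to 1 lower between P3 and P1, 1 to 2 lower and 0 higher between P3 and P2. It was -0.74 with a stricter filter, -0.67 with a replicate block, -0.67 for members past the filter and -0.60 as a mean; the block uses the members past the filter, and arrays with the same number correlated by 0.00886 to 0.357 in their deviations, so the numbers were not taken to pair them. At brain P1 the median was 0.12 as deposited and 0.32 with a stricter filter, at P2 0.05 with the first arrays only, and at P3 -0.11 as deposited and 0.12 with the first arrays only. Between P2 and P1 it was 0.01 with cyclic loess and -0.01 with the first arrays only, between P3 and P1 -0.03 and between P3 and P2 0.09 with the first arrays only. Members called higher at P2 were 1 with the median of genes off chromosome 13, 1 with a stricter filter, 1 with a variance trend and 0 with no filter. With no filter, calls were 0 lower between P3 and P1, and 1 lower and 0 higher between P3 and P2 (0 higher with a stricter filter too). The cause was not tested. Arrays limit these results by number: 2 per brain passage, 1 elsewhere.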
